A study of Homo sapiens with 6 samples.

Results

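Loss of either subunit of ribonucleotide reductase was compared with a control in NCI-H929, an established human multiple myeloma cell line. The 4 arrays from cells given small interfering RNA (siRNA) against RRM1 or RRM2 formed one side, with 2 arrays for each siRNA and each siRNA given equal weight. The 2 arrays of the control, a scramble siRNA with no target, formed the other side, so all 6 arrays of the study entered. All cells, controls included, were grown in RPMI medium with fetal bovine serum and were electroporated, and RNA was taken after 24 h. Biotin-labelled cRNA was hybridised to oligonucleotide arrays. Every comparison is at the level of RNA in 1 cell line at 1 time. Whether replicate arrays stem from separate cultures is not stated in the labels, so the p-values measure only the spread between these samples, which may be technical.

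Ribonucleotide reductase converts ribonucleotides into deoxyribonucleotides, the building blocks of DNA. RRM1 encodes its large subunit, which binds the substrate and the allosteric effectors, and RRM2 encodes the small subunit, which carries the radical and is made mainly in S phase. Cells that run short of deoxyribonucleotides slow or stall their replication forks. Stalled forks activate the ATR kinase, and broken forks can activate p53, a transcription factor that induces genes of cell cycle arrest, repair and apoptosis.

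The arrays held log2 signals with medians between 6.11 and 6.16, and across probe sets they correlated with each other at r = 0.988 to 0.998. The lowest value was that between scramble replicate 1 and siRRM1 replicate 2. Counts without that siRRM1 array stand beside the counts that it moved by over 1.5 times. All 10 measured plasma cell markers lay above the 40th percentile of signal over probe sets, as 7947 of 11963 genes did. Of the 10 markers 0 changed by limma (2 were lower at an unadjusted p under 0.05, and 1 fell with the replicate number as a block). Their summed linear signal was 41367 and 45697 in scramble and between 35943 and 43863 in the knockdown arrays.

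The 2 targets enter the joint comparison through 1 siRNA each. RRM1 had log2 signals of 11.06 and 11.11 in scramble, 8.93 and 7.99 in siRRM1, and 11.12 and 11.38 in siRRM2. RRM2 had 12.78 and 12.78 in scramble, 12.92 and 13.12 in siRRM1, and 10.54 and 11.44 in siRRM2. Each transcript was low only on the arrays of its own siRNA, so their joint log2 differences of -1.23 (limma adjusted p = 0.0211) and -0.77 (adjusted p = 0.0776) are averages of a large fall and no fall. A second RRM2 probe set gave a joint value of -1.25 (adjusted p = 0.00416).

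Of 11963 genes, 767 changed when both knockdowns were set together against scramble (limma on all probe sets, Benjamini-Hochberg adjusted p under 0.05). They were 483 genes that rose, 4.04% of the genes, and 284 that fell, 2.37%. At least 2-fold changes were nearly all rises, 81 genes against 6. Centring the arrays on their medians turned the split into 409 rises and 420 falls, and the changes of at least 2-fold became 78 higher and 9 lower. Over all genes the median log2 difference was 0.0026. At an unadjusted limma p under 0.05, 2731 of the 11963 genes passed, in either direction. In 480 of the 483 genes that rose, all 4 knockdown arrays lay above both scramble arrays, as they did for 15.8% of all genes. In 282 of the 284 that fell, all 4 lay below both, as they did for 16.7% of all genes. The calls rest on the same arrays and favour such separation, so these 2 counts are no independent support. In bulk RNA a changed share of cells in a given state and a changed amount of RNA per cell cannot be told apart.

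Both scramble arrays carry weight in these counts. Without scramble replicate 1, 120 genes changed (107 higher and 13 lower), and without scramble replicate 2, 202 changed (159 and 43). The count was 420 without siRRM1 replicate 2, and it was 300 and 334 without the first and the second siRRM2 array. Of 123 genes named by rule, 74 lost their call without scramble replicate 1 and 63 without scramble replicate 2. With the replicate number as a block, 1293 genes changed (732 and 561). A core of 85 genes, 80 higher and 5 lower, passed in the full comparison and without any 1 of the 6 arrays. The core holds GZMB, IL10, GDF15, LAPTM5, IL17A and CDKN1A among the rises, and CDC20, PSRC1 and TBC1D30 among the falls.

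**Figure D1:**
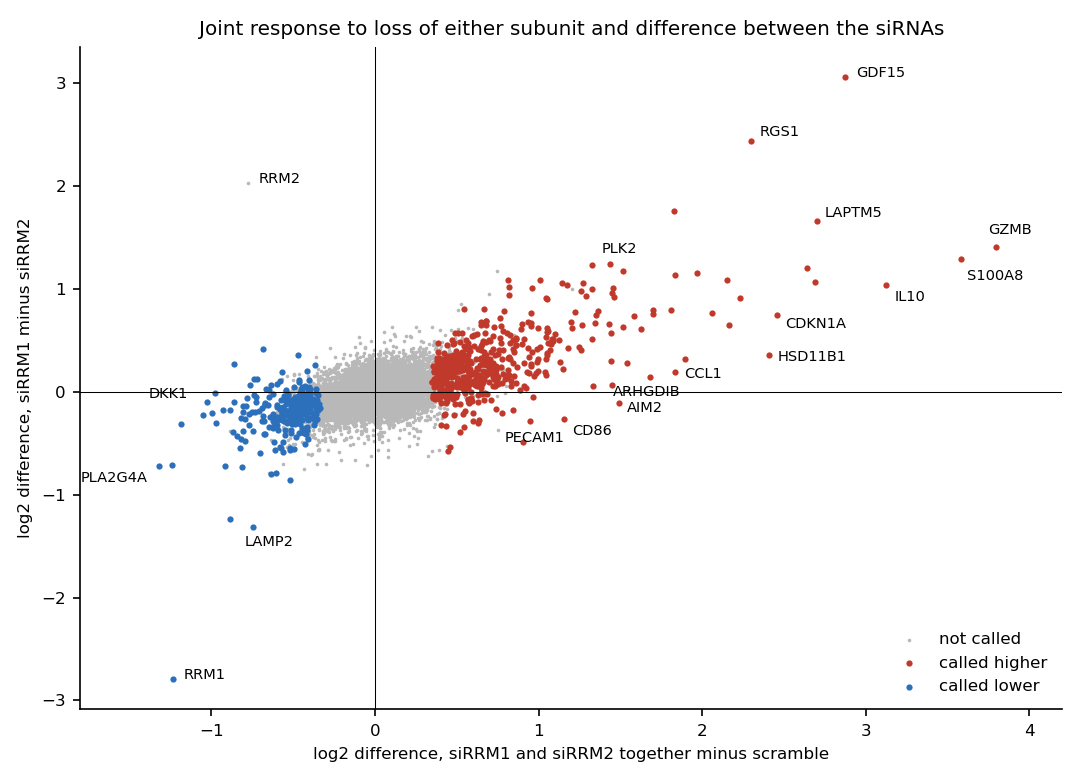
Each point is 1 of the 11963 genes, placed by its log2 difference between both knockdowns together and scramble (horizontal axis) and by its log2 difference between siRRM1 and siRRM2 (vertical axis). Red points rose and blue points fell (limma adjusted p under 0.05). The 483 risen genes lie mostly above the horizontal line, where siRRM1 exceeds siRRM2, and GDF15 lies farthest up among them. RRM1 and RRM2 sit far from the horizontal line because each was lowered by 1 siRNA alone.

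GZMB, which had the largest rise among the genes named here, encodes granzyme B, a protease of cytotoxic granules. Its log2 signal was 5.56 and 5.89 in scramble, 9.56 and 10.90 in siRRM1, and 8.15 and 9.49 in siRRM2. No knockdown array came near the scramble arrays, and the joint rise was 13.9-fold (log2 3.80, SE 0.42, limma adjusted p = 0.00376). IL10, an anti-inflammatory cytokine, went from 4.71 and 5.41 to 8.59 and 8.81 in siRRM1 and to 7.52 and 7.81 in siRRM2. That was an 8.71-fold rise (log2 3.12, SE 0.19, adjusted p = 2.91e-04). IL17A, an inflammatory cytokine of T cells, went from 3.57 and 3.97 to 6.88 and 7.14 in siRRM1 and to 5.45 and 6.16 in siRRM2 (log2 2.64, SE 0.20, adjusted p = 8.66e-04). A second IL17A probe set gave -0.13 and did not pass.

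S100A8 and S100A9 encode the calcium-binding pair calprotectin of myeloid cells. S100A8 had log2 signals of 4.45 and 4.44 in scramble, 7.88 and 9.46 in siRRM1, and 6.53 and 8.23 in siRRM2. Replicate 2 was the higher array of both knockdowns, by more than 1.5 log2 units each, and both replicates lay far above scramble. The joint log2 difference was 3.58 (SE 0.50, limma adjusted p = 0.00889), and it did not pass without scramble replicate 1 (0.0711) or scramble replicate 2 (0.0594). A second S100A8 probe set gave 0.93 and did not pass. S100A9 rose by log2 1.97 (SE 0.35, adjusted p = 0.0203). It too did not pass without scramble replicate 1 (0.143) or scramble replicate 2 (0.0981).

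Other large rises were spread over membrane, enzyme and signalling genes. LAPTM5, found in the lysosomes of blood cells, went from 5.07 and 5.24 to 8.47 and 8.90 in siRRM1 and to 6.78 and 7.27 in siRRM2 (log2 2.70, SE 0.16). HSD11B1, which regenerates active glucocorticoid, rose by 2.41 (SE 0.31) with nearly even siRNA differences of 2.59 and 2.23. RGS1, a regulator of G protein signalling, had a joint value of 2.30 (SE 0.49, limma adjusted p = 0.0351). It kept its call without 2 of the 6 arrays only, and its other probe sets gave 0.67 and 0.16, neither called. The antisense transcript DTNB-AS1 rose by 2.69 (SE 0.37). The TNF family ligand TNFSF9, the chemokine CCL4 and the granule protein GNLY rose by 2.23, 2.15 and 2.06.

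Falls were smaller than rises. PLA2G4A, a phospholipase that releases arachidonic acid, had log2 signals of 8.65 and 8.44 in scramble, 7.36 and 6.37 in siRRM1, and 7.60 and 7.57 in siRRM2. All 4 knockdown arrays were lower, and the joint log2 difference was -1.32 (SE 0.23, limma adjusted p = 0.0180). SEMA3C, a secreted guidance cue, went from 7.04 and 7.18 to 6.08 and 5.45 in siRRM1 and to 5.97 and 6.19 in siRRM2 (log2 -1.18, SE 0.17). DKK1, a secreted WNT inhibitor that myeloma cells use against bone formation, went from 5.24 and 5.91 to 4.50 and 4.49 in siRRM1 and to 4.47 and 4.72 in siRRM2 (log2 -1.03, SE 0.17). PLA2G4A, SEMA3C and DKK1 did not pass without scramble replicate 2 (adjusted p = 0.0765, 0.0638 and 0.0559), and PLA2G4A and SEMA3C did not pass without scramble replicate 1 (0.146 and 0.0601).

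The integrin ITGA8 (log2 -1.24), ANKRD34C (-1.05), the thiamine transporter SLC19A2 (-0.99), ASPH (-0.98), the long noncoding RNA DLEU2 (-0.97), the imprinted gene PEG3 (-0.92) and ANKRD46 (-0.89) also fell. The ANKRD46 value averages -1.50 after siRRM1 and -0.27 after siRRM2. TBC1D30 (-0.89), RABGGTB, a subunit of the enzyme that attaches lipid to RAB proteins (-0.87), the lysosomal enzyme GALC (-0.86) and the circadian repressor NR1D2 (-0.86) completed the 15 largest falls with DEPDC1, described with the mitosis genes. For DLEU2, PEG3, SEMA3C and TBC1D30 a second probe set was lower without passing (-0.34, -0.57, -0.36 and -0.38). The remaining TBC1D30 probe set was level (-0.07), and ASPH had 2 probe sets that did not pass (-0.19 and -0.10) beside a second that did (-0.78).

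**Figure D2:**
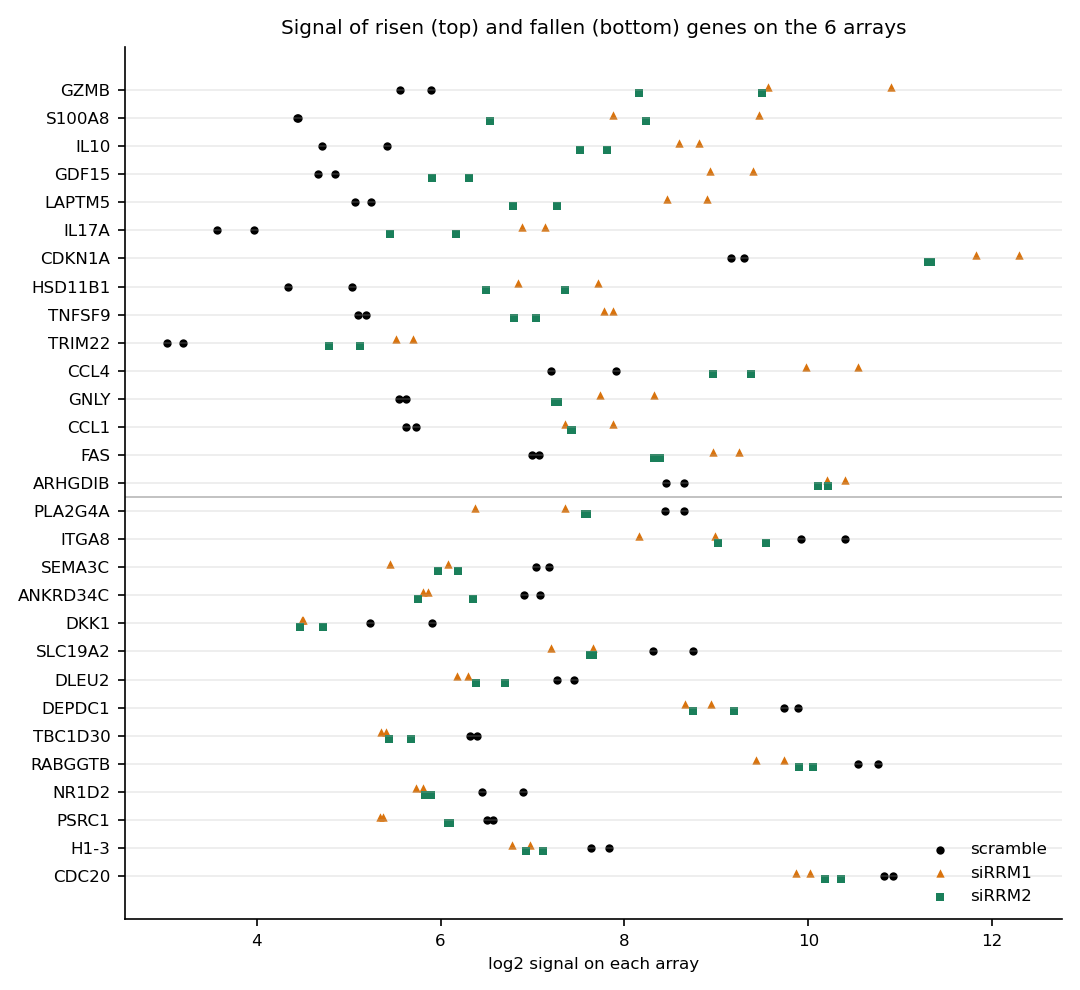
Log2 signal on each of the 6 arrays (horizontal axis) for 15 genes that rose (above the grey line) and 14 that fell (below it), with scramble as circles, siRRM1 as triangles and siRRM2 as squares. No knockdown symbol reaches the scramble circles of its gene. Levels are comparable within a gene only, since each gene has its own probe set.

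The lists of p53 targets and regulators had the greatest share of members called. Of 12 measured targets that halt the cell cycle, 6 rose and 0 fell, and the median log2 difference was 0.50. CDKN1A encodes p21, an inhibitor of cyclin-dependent kinases. Its log2 signal was 9.16 and 9.30 in scramble, 11.83 and 12.30 in siRRM1, and 11.33 and 11.30 in siRRM2. The groups were far apart, and the rise was 5.50-fold (log2 2.46, SE 0.13, limma adjusted p = 2.64e-04). PLK2 (1.44), CCNG2 (1.05), GADD45A (0.90) and PLK3 (0.61) rose too. GDF15, a secreted stress cytokine, rose by 2.88 on average, but far more after siRRM1 than after siRRM2. Leaving out scramble replicate 1 or siRRM2 replicate 2 gave 4 risen members, and each other array 5.

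Of 9 regulators of p53 itself, 4 rose and 0 fell (median 0.12). PIDD1, an adaptor of the caspase-2 complex, rose by 0.87 (SE 0.10, limma adjusted p = 0.00417) and the phosphatase PPM1D, which switches p53 signalling off, by 0.59 (SE 0.08). MDM2, the ubiquitin ligase that degrades p53, had 8.33 and 8.41 in scramble, 9.94 and 9.27 in siRRM1, and 9.40 and 9.10 in siRRM2. All 4 knockdown arrays were higher, by log2 1.05 on average (SE 0.18, adjusted p = 0.0164), though the call was lost without scramble replicate 1 (0.128) or scramble replicate 2 (0.0825). CDKN2A rose by 0.49. A probe set of MDM2 (0.36) and 1 of CDKN2A (0.04) did not pass, beside others of each gene that did. Of the 9, 1 rose without scramble replicate 1, 1 without scramble replicate 2 and 2 without siRRM2 replicate 1.

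Of 18 p53 targets that promote apoptosis, 9 rose and 0 fell (median 0.31). The death receptor FAS had log2 signals of 7.07 and 6.99 in scramble, 9.24 and 8.97 in siRRM1, and 8.32 and 8.39 in siRRM2. It rose 3.25-fold (log2 1.70, SE 0.10, limma adjusted p = 2.91e-04), and its 3 other probe sets gave 1.48, 1.91 and 2.09. PMAIP1, the BH3-only protein NOXA (1.27), the TRAIL receptor TNFRSF10B (1.09) and PHLDA3, an inhibitor of AKT (1.05), followed. TP53I3 (0.96), ZMAT3 (0.94), CASP1 (0.68), BAX (0.53) and TRIAP1 (0.40) were the remaining risen members. The count was 5 without scramble replicate 1. A TNFRSF10B probe set at 0.50 did not pass, beside another at 0.61 that did.

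Of 30 p53 targets in repair, redox control and other roles, 17 rose and 1 fell (median 0.65). TNFSF9 went from 5.10 and 5.19 to 7.77 and 7.88 in siRRM1 and to 6.80 and 7.04 in siRRM2, with the smallest joint p of all genes named here (log2 2.23, SE 0.10, limma adjusted p = 8.60e-05). TRIM22, an antiviral ubiquitin ligase (2.16), and ACTA2, smooth muscle actin (1.70), rose. ACTA2 had a dim second probe set at -0.15. The DNA damage sensors DDB2 (1.51) and XPC (0.77), the lysosomal enzyme FUCA1 (1.36), the autophagy gene DRAM1 (1.35), and SESN1, an inhibitor of mTORC1 (1.09), rose as well. HSPA4L, a heat shock family chaperone, fell by 0.43 (SE 0.10, adjusted p = 0.0458). Leaving out scramble replicate 1 left 10 risen of the 30, and HSPA4L passed in the absence of siRRM1 replicate 1 only. Of the 12, 9, 18 and 30 measured members of the 4 lists, 36 different genes rose, beside 4.04% of all genes. The members were chosen as p53 targets or regulators from general knowledge, with earlier results of these data known. These counts are therefore no independent test of a p53 response.

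**Figure D3:**
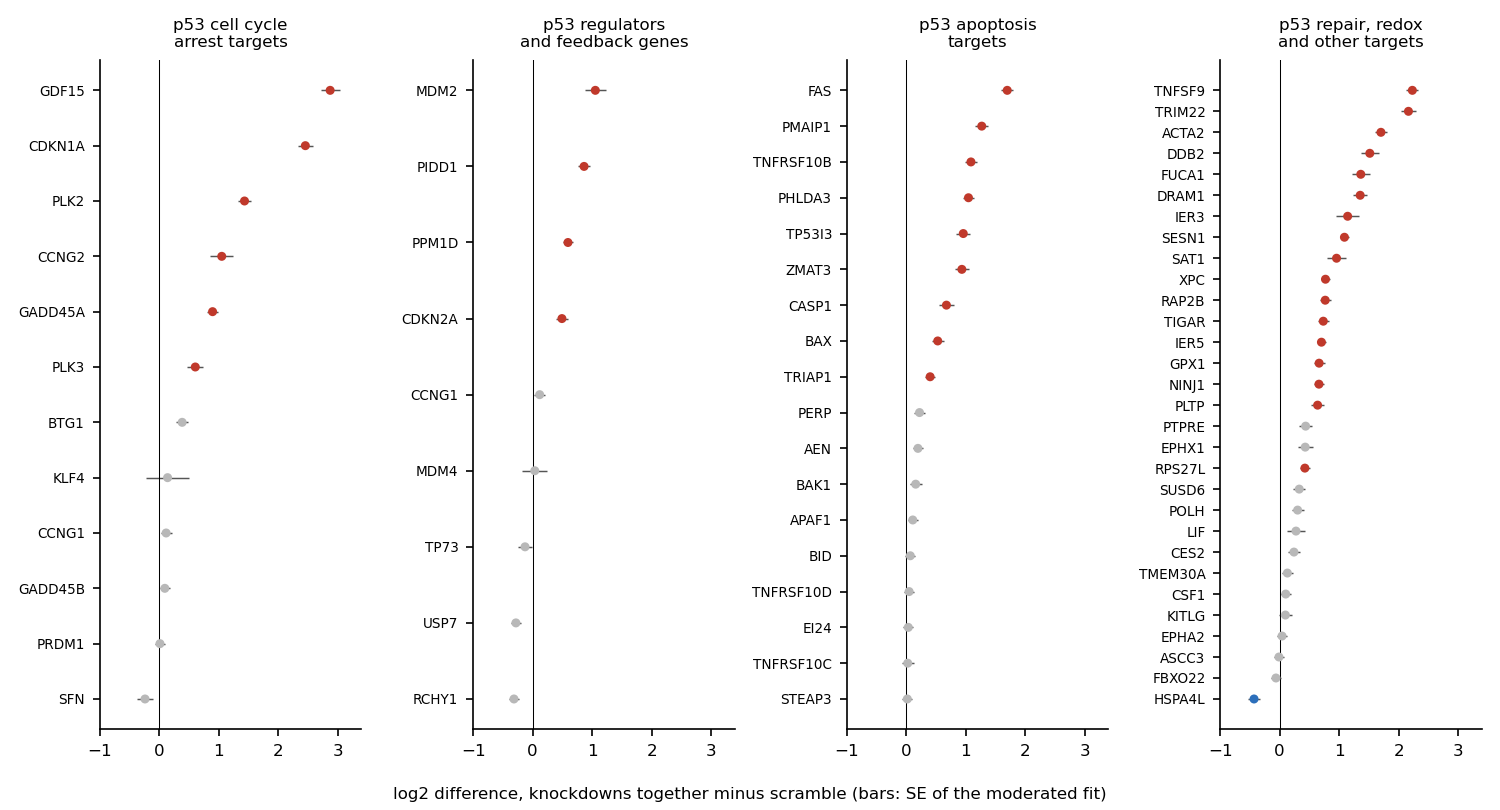
Joint log2 difference between both knockdowns and scramble for every measured member of 4 lists of p53 targets and regulators, with bars for the SE of the moderated fit. Red points rose, blue points fell and grey points did not pass. GDF15, CDKN1A, FAS and TNFSF9 are among the highest, and HSPA4L is the blue point. CCNG1 stands in 2 of the lists.

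Of 31 BCL2 family members and caspases, 6 rose and 0 fell (median 0.14), beside 4.04% of all genes that rose. BCL2, which blocks apoptosis, went from 6.52 and 6.30 to 7.72 and 7.86 in siRRM1 and to 7.30 and 7.16 in siRRM2 (log2 1.10, SE 0.10, limma adjusted p = 0.00192). PMAIP1, BAX and CASP1, described with the p53 targets, are 3 of the 6. Of the other BCL2 probe sets, 1 rose by 0.47 and 2 did not pass (-0.12 and -0.02). The BH3-only gene BIK (0.58) and the death ligand TNFSF10 (0.52) rose, the latter from a dim probe set at 3.35 and 3.43 in scramble. Other TNFSF10 probe sets gave 0.25 and 0.20 and did not pass. Only 2 of the 31 rose without scramble replicate 1 and 3 without scramble replicate 2.

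The genes of DNA synthesis had small median changes. Of 17 genes of deoxyribonucleotide salvage and thymidylate synthesis, 2 rose and 0 fell (median 0.03). TK1, the S phase thymidine kinase, went from 9.66 and 9.90 to 10.36 and 10.45 in siRRM1 and to 10.12 and 10.20 in siRRM2 (log2 0.51, SE 0.10, limma adjusted p = 0.0253). TYMP, which degrades thymidine, rose by 0.65 (SE 0.08, adjusted p = 0.00492). Of 39 genes of origin firing, polymerases and the clamp, 2 rose and 0 fell (median 0.14). They were PCNA, the sliding clamp (0.53), and the histone chaperone ASF1B (0.82). With the replicate block 6 of the 39 rose. Values lay above 0 in 32 of the 39, and 13 were higher and 1 lower at an unadjusted limma p under 0.05. That threshold was met by 2731 of all 11963 genes. In 14 of the 39 all knockdown arrays lay above both scramble arrays, as they did for 15.8% of all genes. Under limma 0 of 16 origin licensing and MCM helicase genes passed (median 0.11), with 5 at an unadjusted p under 0.05 and 1 with the block. MCM3 and MCM5, subunits of the helicase, had values of 0.31 and 0.28 (adjusted p = 0.0883 and 0.0821).

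Few transcripts of the checkpoint pathways that sense stalled forks passed. Of 22 ATR and ATM pathway genes, 0 rose and 1 fell, MDC1, an adaptor at DNA breaks (log2 -0.41, SE 0.09, limma adjusted p = 0.0351). The median was -0.01, and 5 of the 22 had an unadjusted limma p under 0.05, 1 higher and 4 lower. That is near the share of all genes, 2731 of 11963. Chosen after their values were seen, CHEK1 had a log2 difference of -0.08 and ATR of -0.24, neither past the threshold (adjusted p = 0.716 and 0.170). Of 21 homologous recombination and Fanconi genes, FANCI (0.65) and BRCA1 (0.51) rose and WRN (-0.47) and FANCF (-0.46) fell. Of 28 G1/S regulators, the cyclins CCNE2 (0.81) and CCND2 (0.46) and the repressor E2F8 (0.48) rose, and E2F5 (-0.61) fell. Of 23 genes of purine, pyrimidine and one-carbon synthesis, 1 fell, PPAT, the first committed enzyme of purine synthesis (-0.47). Other probe sets did not pass for E2F5 (0.14), CCND2 (0.44 and 0.12), BRCA1 (0.35), FANCI (0.35), MDC1 (-0.22) and PPAT (-0.37). Among all genes 4.04% rose and 2.37% fell. Over these 7 lists of DNA synthesis, checkpoints and G1/S, 9 members rose and 5 fell, against 18 and 6 with the block. The counts were 0 and 0 without scramble replicate 1. With scramble replicate 2 left out they were 2 and 1, and with siRRM1 replicate 2 left out 7 and 2. Without siRRM2 replicate 1 they were 4 and 1, and without siRRM2 replicate 2 they were 4 and 0.

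Mitosis genes moved in the other direction. Of 60 measured mitosis and kinetochore genes, 9 fell and 0 rose, beside 2.37% of all genes that fell. The median log2 difference was -0.23, and 30 of the 60 had all knockdown arrays below both scramble arrays, against 16.7% of all genes. CDC20, which activates the anaphase-promoting complex, had log2 signals of 10.83 and 10.93 in scramble, 10.02 and 9.87 in siRRM1, and 10.19 and 10.35 in siRRM2 (log2 -0.77, SE 0.09, limma adjusted p = 0.00526). DEPDC1 went from 9.89 and 9.74 to 8.94 and 8.66 in siRRM1 and to 8.75 and 9.20 in siRRM2 (log2 -0.93, SE 0.14, adjusted p = 0.0117). All 4 knockdown arrays lay below scramble for both genes. PSRC1, a spindle protein (-0.81), the kinetochore motor CENPE (-0.80), the kinesin KIF14 (-0.67), the mitotic cyclin CCNB1 (-0.60), CDC27 (-0.54), the spindle gene ASPM (-0.49) and the checkpoint kinase BUB1B (-0.41) made up the 9.

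At an unadjusted p under 0.05, 28 of the 60 were lower and 0 higher. Over all 11963 genes, 2731 had such a p, in either direction. Other members lay near their control level. Chosen after their values were seen, CDK1, the kinase that CCNB1 activates, had a log2 difference of -0.02 (limma adjusted p = 0.953) and FOXM1, a transcription factor of this programme, of 0.18 (adjusted p = 0.479). MKI67, the proliferation marker, had 0.15 (adjusted p = 0.378), with other probe sets between 0.0038 and 0.28. The count rose to 19 with the replicate block and to 13 with arrays centred on their medians. It was 2, 2 and 5 without scramble replicate 1, scramble replicate 2 and siRRM2 replicate 1, and 10 without siRRM2 replicate 2. CDC20 and PSRC1 passed without any 1 array.

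Promoters of cell cycle genes often carry the cell cycle genes homology region, TTTGAA, bound by the DREAM and MuvB complexes, and CCAAT boxes, bound by NF-Y. Both were searched on both strands from 250 bases before to 50 after the RefSeq start (GRCh38.p14). Of the 9 fallen genes, 5 hold TTTGAA (55.6%, against 15.4% of 27305 promoters) and 7 hold CCAAT (77.8%, against 35.7%). These matches describe the letters in the window and were not tested for function. Mitosis genes that did not fall were not compared, so the shares cannot be tied to the fall. The following promoters show both motifs in CDC20 (chr1:43358731-43359030, plus strand) and DEPDC1 (chr1:68497033-68497332, minus strand), and CCAAT alone in CCNB1 (chr5:69166900-69167199, plus strand), with matches on either strand in capitals.
CDC20: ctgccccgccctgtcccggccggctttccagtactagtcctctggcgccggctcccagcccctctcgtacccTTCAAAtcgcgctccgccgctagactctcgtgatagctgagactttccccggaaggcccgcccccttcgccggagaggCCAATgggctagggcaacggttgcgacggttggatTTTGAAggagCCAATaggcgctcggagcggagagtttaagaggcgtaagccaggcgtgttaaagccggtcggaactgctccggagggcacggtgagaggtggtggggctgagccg
DEPDC1: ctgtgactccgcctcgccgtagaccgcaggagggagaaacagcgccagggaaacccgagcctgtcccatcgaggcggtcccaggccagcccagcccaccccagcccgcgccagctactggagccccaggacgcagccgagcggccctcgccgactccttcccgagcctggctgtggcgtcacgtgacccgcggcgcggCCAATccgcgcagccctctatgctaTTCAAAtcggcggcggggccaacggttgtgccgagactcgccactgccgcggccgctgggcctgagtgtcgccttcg
CCNB1: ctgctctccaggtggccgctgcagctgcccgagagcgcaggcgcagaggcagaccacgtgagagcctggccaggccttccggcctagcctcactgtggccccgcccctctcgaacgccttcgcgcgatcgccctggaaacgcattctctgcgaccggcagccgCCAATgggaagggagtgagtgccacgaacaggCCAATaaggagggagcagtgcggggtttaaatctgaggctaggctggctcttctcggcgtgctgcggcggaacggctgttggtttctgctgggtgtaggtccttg
In CDC20 the TTTGAA matches begin 178 and 65 bases before the start and the CCAAT boxes 100 and 55 before it. In DEPDC1 they begin 27 and 52 bases before it.

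Of 32 nucleolar and ribosome biogenesis genes, 5 fell and 0 rose, beside 2.37% of all genes that fell. Each of the 32 had a log2 difference below 0, with a median of -0.21, and in 22 of them all knockdown arrays lay below both scramble arrays, as they did for 16.7% of all genes. UTP18, of the small subunit processome, went from 10.44 and 10.31 to 9.88 and 9.68 in siRRM1 and to 9.99 and 9.94 in siRRM2 (log2 -0.50, SE 0.09, limma adjusted p = 0.0243). UTP20 (-0.53), NIP7 (-0.50), the helicase DDX10 (-0.40) and RRS1 (-0.36) fell as well. A second UTP18 probe set gave -0.15 and did not pass. The calls were fragile, since 0 members passed without either scramble array, without siRRM1 replicate 2 or without either siRRM2 array, while 9 passed with the block. MYC, which drives many of these genes, had a log2 difference of 0.06 (adjusted p = 0.888). Under limma 0 of 37 cytosolic ribosomal protein genes passed, also 0 with the block and 2 at an unadjusted p under 0.05, and their median was -0.05. Of all 11963 genes 2731 had an unadjusted p under 0.05. Values lay below 0 in 34 of the 37. In 15 of the 37 all knockdown arrays lay below both scramble arrays, and in 0 above both.

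Histone genes split. H1-3, a linker histone, went from 7.64 and 7.83 to 6.98 and 6.77 in siRRM1 and to 6.92 and 7.11 in siRRM2 (log2 -0.79, SE 0.11, limma adjusted p = 0.00767), and H1-4 fell by 0.68. The core histone genes H2BC5 (0.74), H2BC21 (0.71) and H2AC17 (0.65) rose. These were 5 of 40 measured histone genes, with a median of 0.10, beside 4.04% of all genes that rose and 2.37% that fell. A second H2BC5 probe set gave 0.26 and did not pass. With the block 8 rose and 5 fell. There were 0 risen and 1 fallen without scramble replicate 1. Without scramble replicate 2 there were 0 of either, and without siRRM2 replicate 1 there were 0 and 1. Histone genes have near-identical copies, which the probe sets may not separate.

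Of 47 measured interferon-stimulated genes, 11 rose and 0 fell, beside 4.04% of all genes that rose, and 36 did not pass. The median was 0.25, and in 25 of the 47 all knockdown arrays exceeded both scramble arrays, as they did for 15.8% of all genes. TRIM22, also a p53 target, had log2 signals of 3.03 and 3.20 in scramble, 5.51 and 5.70 in siRRM1, and 4.79 and 5.12 in siRRM2. It stood apart from the rest in size (log2 2.16, SE 0.12, limma adjusted p = 2.64e-04). ISG15, a ubiquitin-like modifier, went from 8.20 and 8.34 to 9.02 and 9.13 in siRRM1 and to 8.86 and 9.06 in siRRM2 (log2 0.75, SE 0.10, adjusted p = 0.00679). OAS1, which makes the activator of RNase L, rose by 0.73 (SE 0.10) and TAP1, the peptide transporter of antigen presentation, by 0.57 (SE 0.08). IFITM1 (0.91), SP110 (0.82), HERC5 (0.56), IRF9 (0.55), OAS2 (0.47), IRF7 (0.44) and MX1 (0.43) were the other risen members. The count was 18 with the block. It was 1 without scramble replicate 1 and 4 without scramble replicate 2. It was 7 without siRRM1 replicate 2. Leaving out the first siRRM2 array gave 7, and leaving out the second gave 4.

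The core that interferon regulatory factors read, AANNGAAA, was searched in the same promoter windows on both strands. It occurs in all 8 of the 11 risen genes whose promoter was matched (23.2% of all promoters hold it). TRIM22 was among the risen genes without a matched promoter. Interferon-stimulated genes that did not rise were not compared, so the share cannot be tied to the rise. The promoters of ISG15 (chr1:1013247-1013546, plus strand) and OAS1 (chr12:112906712-112907011, plus strand) are shown with the core in capitals, since they belong to 2 classical members of the response.
ISG15: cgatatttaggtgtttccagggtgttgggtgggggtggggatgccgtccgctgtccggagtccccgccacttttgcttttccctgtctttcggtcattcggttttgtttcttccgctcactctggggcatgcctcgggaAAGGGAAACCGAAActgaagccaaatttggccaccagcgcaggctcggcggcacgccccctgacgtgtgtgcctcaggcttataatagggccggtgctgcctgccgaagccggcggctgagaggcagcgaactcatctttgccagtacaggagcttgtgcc
OAS1: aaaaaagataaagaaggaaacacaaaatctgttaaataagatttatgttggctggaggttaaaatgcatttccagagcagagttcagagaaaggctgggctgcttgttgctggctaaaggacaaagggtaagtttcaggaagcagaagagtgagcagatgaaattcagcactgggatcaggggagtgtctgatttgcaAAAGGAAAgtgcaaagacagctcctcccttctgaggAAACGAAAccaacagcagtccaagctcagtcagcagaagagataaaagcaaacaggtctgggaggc
ISG15 holds overlapping cores that begin 111 and 105 bases before the start, and OAS1 holds cores that begin 52 and 16 bases before it. Of the 30 genes of the p53 lists that rose and had a matched promoter, 0 hold a full p53 consensus site in this window, which 8 of 27305 promoters (0.0293%) hold. With a match so rare, 0 of 30 was all but certain beforehand. The search therefore says nothing on whether p53 sites lie in or near these genes.

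**Figure D4:**
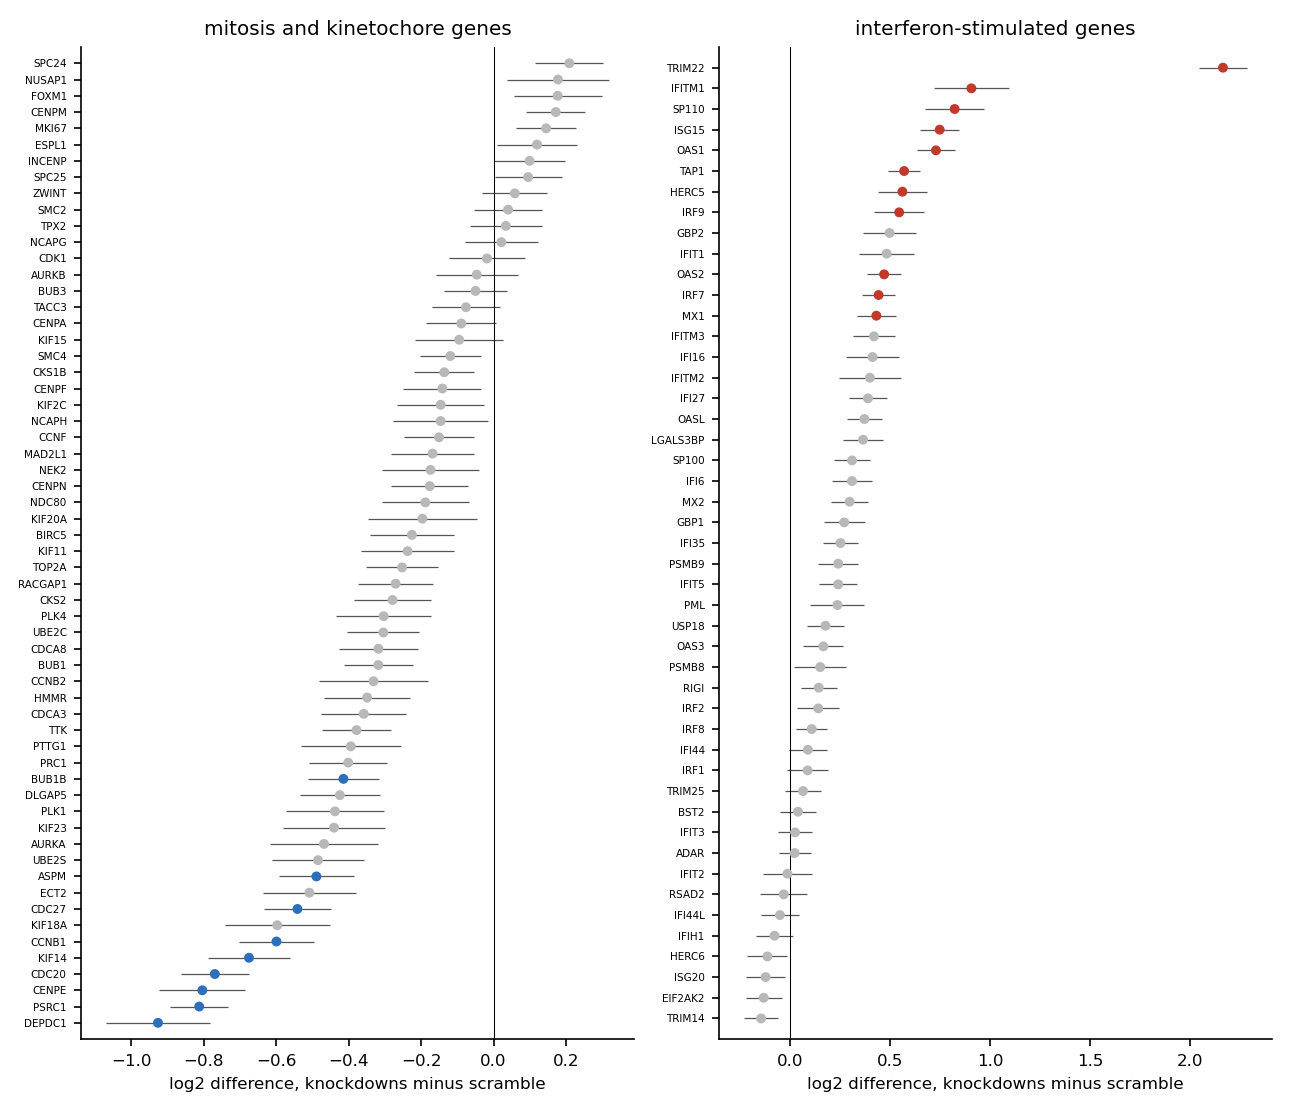
Joint log2 difference (horizontal axis, with the SE of the moderated fit) for 60 mitosis and kinetochore genes (left) and 47 interferon-stimulated genes (right), ordered by value. Blue points fell, red points rose and grey points did not pass. In the left panel 48 of 60 lie below 0 and the 9 fallen genes end at DEPDC1. In the right panel 39 of 47 lie above 0, with TRIM22 apart from the others.

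Cytokines, chemokines and signalling genes of inflammation rose in part. Of 43 interleukins, chemokines and interferons, 6 rose and 2 fell (median 0.05), beside 4.04% of all genes that rose and 2.37% that fell. The chemokine CCL1 went from 5.63 and 5.74 to 7.88 and 7.35 in siRRM1 and to 7.42 and 7.43 in siRRM2 (log2 1.84, SE 0.14, limma adjusted p = 8.66e-04). IL10, IL17A, CCL4, IL32 (0.78) and IL23A (0.68) were the others that rose. IL15 (-0.58) and IL12A (-0.58), cytokines that stimulate lymphocytes, fell. Neither fall passed without siRRM2 replicate 1 or without either scramble array, and 1 passed without siRRM1 replicate 2 or siRRM2 replicate 2. A second IL15 probe set gave -0.50 and did not pass.

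Of 28 TNF superfamily ligands and receptors, TNFSF9, TNFSF10 and the receptor TNFRSF12A (0.49) rose and 0 fell. Of 22 NF-kappaB subunits and feedback genes, 3 rose and 1 fell. TNFAIP3, the feedback inhibitor A20, had 6.79 and 6.70 in scramble, 8.13 and 8.45 in siRRM1, and 7.49 and 7.73 in siRRM2 (log2 1.20, SE 0.12, limma adjusted p = 0.00246). RELB (0.70) and NFKB2 (0.55), the pair of the alternative pathway, rose and REL (-0.60) fell. Other probe sets of NFKB2 (0.29 and 0.17) and REL (-0.14) did not pass. With the block 6 of the 22 rose. Of 29 immediate early and AP-1 genes, 5 rose, among them ATF3 (1.51), IER3 (1.14), IER5 (0.70) and JUNB (0.50). The fifth was BATF (0.49), and with the block 10 rose. Among all genes 4.04% rose and 2.37% fell. Over these 3 lists 11 members rose and 1 fell, against 20 and 1 with the block. The risen members were 4, 5 and 7 and the fallen 0 without scramble replicate 1, scramble replicate 2 and siRRM2 replicate 1, and without siRRM2 replicate 2 REL did not pass.

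Of 16 S100 genes, 7 rose and 0 fell (median 0.35), beside 4.04% of all genes that rose. S100A6 went from 9.78 and 9.97 to 11.15 and 11.20 in siRRM1 and to 10.66 and 10.74 in siRRM2 (log2 1.06, SE 0.09, limma adjusted p = 0.00147). S100A4 (1.07) and S100A11 (0.84) rose with it, and these 3 passed without any 1 array. S100A8, S100A9, S100A10 (0.97) and S100A2 (0.68) were the rest. Of 14 cytotoxic granule genes, 4 rose, GZMB, GNLY, NKG7 (1.33) and PRF1, the pore-forming perforin (0.94). GNLY went from 5.62 and 5.54 to 7.73 and 8.32 in siRRM1 and to 7.24 and 7.28 in siRRM2. With scramble replicate 1 left out, 3 S100 genes and 2 granule genes rose, and with scramble replicate 2 left out, 4 S100 genes did.

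Markers of other blood cells were measured beside these rises. Among all genes 4.04% rose, and 7947 of 11963 lay at or above the 40th percentile of signal, which was taken over probe sets. Of 12 myeloid markers, S100A8, S100A9, CSF1R (1.05) and FCER1G (0.48) rose, and 9 of the 12, CD14, LYZ, ITGAM and MPO included, lay below the 40th percentile of signal. The summed linear signal of the myeloid markers was 310 and 318 in scramble and 455 to 1648 in the knockdown arrays. Of 7 NK cell markers, GNLY and NKG7 rose, and 4 of the 7 lay below that percentile (sum 227 to 251 in scramble and 372 to 582 in the knockdowns). Of 10 T cell markers, TRBC1 rose (0.86) and 5, CD3D and CD3G included, lay below it (1449 to 1471 and 1960 to 2852). Of 9 stromal markers ACTA2 alone rose (442 to 447 and 614 to 909), and of 8 epithelial markers 0 passed, also 0 with the block and at an unadjusted p under 0.05 (512 to 521 and 484 to 505). Median log2 differences were 0.08 for myeloid, 0.0058 for NK cell, 0.08 for T cell and 0.04 for stromal markers. The higher sums come mostly from the called members, so they do not show a rise of a whole marker set. The part of other cells in the rises was not tested. Without scramble replicate 1 or scramble replicate 2, 0 myeloid markers rose, and 2 did without siRRM2 replicate 1. Just 1 NK cell marker rose without scramble replicate 1 or siRRM2 replicate 2.

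Lists of other processes had few called members, beside 4.04% of all genes that rose and 2.37% that fell. In the ATF4 and integrated stress response CHAC1 (0.52), DDIT3 (0.81) and SLC7A11 (0.47) rose among 29. Of 34 plasma cell and myeloma genes, the transcription factor MAF (0.61), CCND2 and CD79B (0.46) rose and DKK1 fell. HSPB1, a small heat shock protein (0.87), rose among 17 heat shock genes. RORA (0.57) rose and NR1D2 fell among 15 clock genes. In cholesterol synthesis TM7SF2 (0.40) rose and HMGCS1 (-0.48) fell among 24. The glycolytic enzyme HK2 (-0.45) fell among 22, with a second probe set at 0.17, and NDUFB2 (0.35) rose among 43 oxidative phosphorylation genes. Other probe sets of SLC7A11 (0.21 and 0.36), HMGCS1 (-0.67) and NDUFB2 (0.25) did not pass. For MAF, a probe set at 0.43 did not pass and another at 0.57 did. Under limma 0 of 27 proteasome genes and 0 of 27 endoplasmic reticulum chaperone and unfolded protein response genes passed, with 3 and 8 at an unadjusted p under 0.05 and 2 and 2 with the block. Of all 11963 genes 2731 had an unadjusted p under 0.05. All knockdown arrays lay below both scramble arrays in 10 proteasome, 9 endoplasmic reticulum and 9 cholesterol genes, and above both in 0, 2 and 2. Among the clock genes 1 lay below and 5 above. Of all genes 16.7% lay below and 15.8% above. In the 7 lists named before the proteasome genes, 10 members rose and 4 fell, against 12 and 11 with the block. Leaving out the first or the second scramble array gave 0 and 1 rises and 2 and 1 falls. Leaving out siRRM1 replicate 2 gave 3 and 4, and leaving out the first or the second siRRM2 array gave 2 and 3 rises and 1 and 2 falls.

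**Figure D5:**
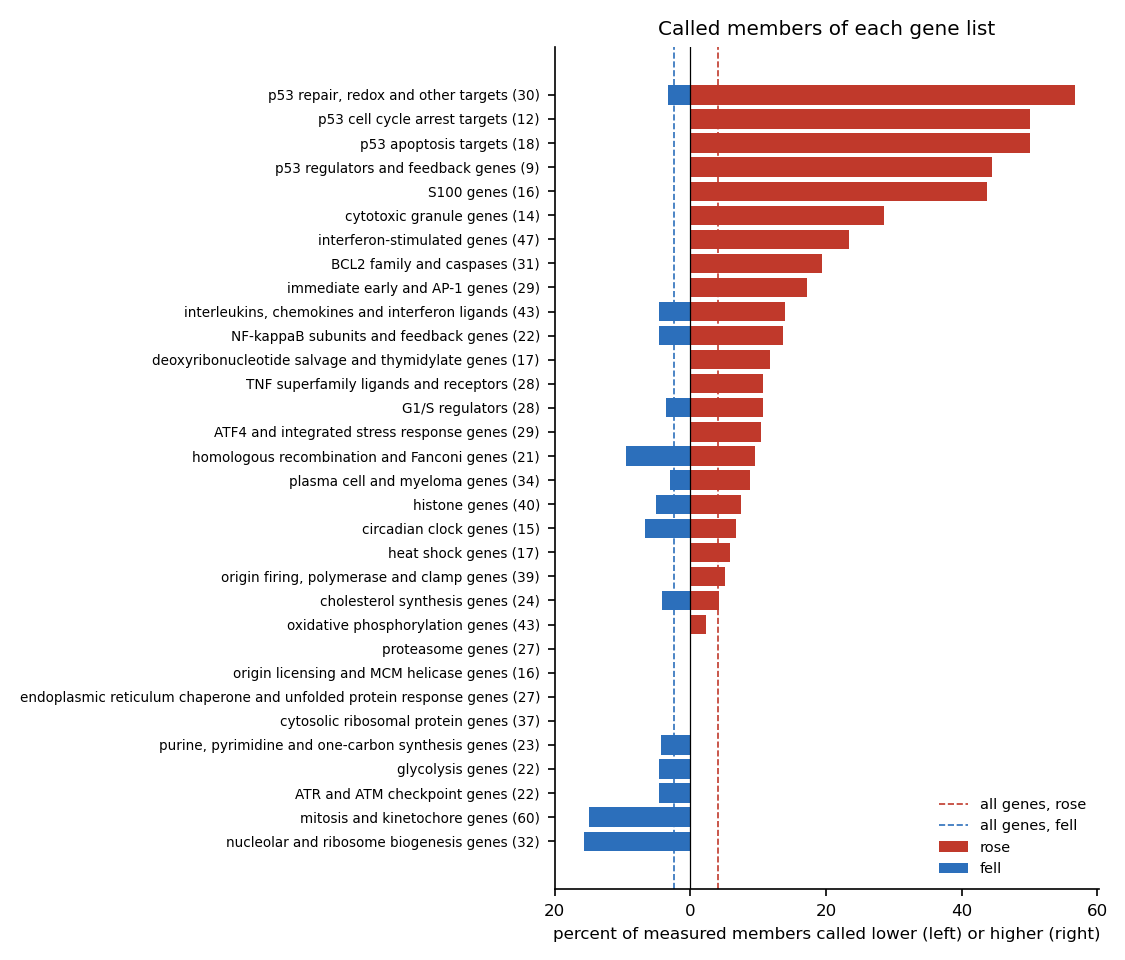
Percent of the measured members of each gene list, the cell type markers left out, that fell (blue, to the left) or rose (red, to the right), with the number measured in brackets and dashed lines at the share of all genes, 2.37% and 4.04%. The 4 p53 lists reach farthest to the right, followed by the S100 and cytotoxic granule genes. The nucleolar and mitosis lists reach farthest to the left.

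The response had the same direction after either siRNA in most called genes but was larger after siRRM1. The difference between siRRM1 and siRRM2 uses no scramble array and is independent of the joint value. Of the 483 genes that rose, siRRM1 was above siRRM2 in 418 (86.5%), by a median of 0.23, where it was above in 50.2% of all genes, by a median of 0.0007. Of the 284 that fell, siRRM1 was the lower in 255, by a median of 0.17. Gene by gene the difference rarely passed. Only 4 genes, 0.0334%, differed between the siRNAs, namely RRM1, GDF15, PLK2 and LAMP2, while 902 did at an unadjusted p under 0.05. RRM2 was not among the 4 by its reported probe set, though it was low only in siRRM2 and its second probe set differed by log2 2.91. The test thus missed a large difference, and the count does not show that the siRNAs acted alike. With the block 63 passed. Without siRRM1 replicate 2 or siRRM2 replicate 2 there were 2, and without siRRM2 replicate 1 there was 1.

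GDF15 had log2 signals of 4.86 and 4.67 in scramble, 8.93 and 9.40 in siRRM1, and 5.90 and 6.31 in siRRM2. The 3 groups did not overlap, and the difference between the siRNAs was log2 3.06 (95% interval 2.63 to 3.48, limma adjusted p = 0.00153). A dim second probe set gave a joint value of 0.09. PLK2, a stress kinase, had 6.00 and 5.67 in scramble, 7.88 and 7.91 in siRRM1, and 6.62 and 6.68 in siRRM2, a difference between siRNAs of 1.24 (0.96 to 1.53, adjusted p = 0.0269). LAMP2, a lysosomal membrane protein, had 9.29 and 9.30 in scramble, 7.98 and 7.81 in siRRM1, and 9.14 and 9.28 in siRRM2. Its joint fall of 0.74 therefore comes from the siRRM1 arrays, and its other probe sets had joint values of 0.12 and 0.33. The difference was -1.32 (-1.56 to -1.07, adjusted p = 0.00962). In ANKRD46, RGS1, DDIT3, REL and SLC7A11 the siRRM1 arrays carried most of the joint value too. Their siRRM2 values were -0.27, 1.08, 0.27, -0.21 and 0.22, none past the threshold (limma adjusted p = 0.463 to 0.633), and their differences between the siRNAs did not pass either.

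At the other end stand genes whose siRNA values were close, with siRRM1 and siRRM2 differences that share the same scramble arrays. ARHGDIB, a regulator of small GTPases in blood cells, had 8.65 and 8.45 in scramble, 10.20 and 10.40 in siRRM1, and 10.22 and 10.11 in siRRM2. It rose by log2 1.75 after siRRM1 and 1.61 after siRRM2, with a difference of 0.14 (95% interval -0.13 to 0.41). CCL1 rose by 1.93 and 1.74 (difference 0.19, -0.18 to 0.56), and AIM2, a sensor of cytosolic DNA, by 1.43 and 1.55 (-0.11, -0.66 to 0.43). ARHGDIB and AIM2 were chosen after their values were seen. DKK1 had values of -1.08 and -0.98 (-0.10, -0.56 to 0.35). For CDKN1A the siRNA values were 2.83 and 2.09 (0.74, 0.40 to 1.09, limma adjusted p = 0.249), and for GZMB 4.50 and 3.10 (1.41, 0.30 to 2.52). An interval that holds 0 leaves room for differences as large as its ends.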

How the data were processed

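RNA of 6 NCI-H929 samples was measured, 2 per group. The authors deposited log2 signals of 22277 probe sets for each array. How they were summarised and normalised was not given in the sources used here, and the base was read from the range (highest value per array about 14.4). After 62 control probe sets were left out, 22215 entered limma 3.58.1 (R 4.3.3, lmFit, contrasts.fit and eBayes on 3 group means, 3 residual and 5.19 prior degrees of freedom). The contrast gave each siRNA a weight of 0.5. P-values are two-sided and Benjamini-Hochberg adjusted over all probe sets, and SE are those of the moderated fit. An exact permutation test of 4 arrays against 2 could not go below p = 0.133.

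A gene was read from its single-symbol probe set with the highest mean (11963 genes, 4310 with more than 1 probe set). Per the platform annotation 19070 probe sets had 1 symbol, 1043 several and 2164 none, and 19058 matched the RefSeq gene table. Fold changes follow from log2 differences. The 2 arrays per group limit the precision, and no batch is given in the labels. Replicate numbers were treated as pairs in an alternative fit only, with a block, because same-numbered arrays deviated together from their group means (r = 0.303, 0.252 and 0.119). The fit without the block was kept as the reported one, and the blocked count stands beside it where it moved by over 1.5 times.

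Named genes are RRM1, RRM2, MYC, CDKN1A, MDM2 and MKI67, the 15 largest rises and falls with arrays that do not overlap, the 10 most even rises and falls, called genes that differed between the siRNAs, and per list the 4 risen and 4 fallen members at most with the lowest adjusted p (the lowest 2 p-values if no member passed). Other called members of a list, CCL1 in the comparison of siRNAs, and genes marked so in the text were chosen after their values were seen. The comparison and the 38 gene lists were chosen with earlier results of these data known. The scripts were tested on simulated data. Promoters came from RefSeq (GRCh38.p14).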

Additional observations from a re-analysis of the deposited data

Results flagged for a closer look

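Signals differed between the siRNAs for 4 genes by the test of that difference (limma, siRRM1 minus siRRM2, adjusted p under 0.05). GDF15 had a difference of 3.06 on the log2 scale and PLK2 of 1.24. LAMP2 had a difference of -1.32 and RRM1, the target of siRRM1, of -2.79, and the joint values of both come from the siRRM1 arrays. The LAMP2 value comes from 1 of 3 probe sets.

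Among the 3151 probe sets without a single gene symbol, which no comparison of named genes used, 114 passed in the joint comparison, 59 higher and 55 lower. A 2-fold change or more was seen in 9 of them (8 rises, 1 fall), with log2 differences from -1.15 to 2.08. They could not be tied to 1 gene here.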

How the results depend on the processing

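The direction of the joint value held for every called gene among the 123 named by rule, under every alternative run. Of those not called, MYC (0.06) became -0.07 without siRRM1 replicate 1 and -0.0044 without siRRM2 replicate 1, and KRT5 (-0.08) became 0.0100 without siRRM2 replicate 2. The count of 767 changed genes became 1293 with the replicate block and 451 with the 4 knockdown arrays as 1 group, where the difference between the siRNAs enters the spread. Leaving out 1 array at a time gave 120 to 986 genes. The other array scalings, the filter, the gene-level fit, the trend and robust eBayes gave 746 to 1132. The count of genes that differed between the siRNAs, 4, became 13 in the gene-level fit, 8 with a trend and 63 with the replicate block, and 1 to 4 without 1 array. The count of at least 2-fold changes lay between 59 and 104 under all alternatives, against 87. Of 123 named genes, 39 lost their call with the 4 knockdown arrays as 1 group, and 3 to 74 did without 1 array. Of 51 with more than 1 probe set, 12 lost it as a mean over probe sets. The cause of these losses was not tested.

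With 2 arrays a group, small changes are at the limit of the design. Dim probe sets, such as those of TNFSF10 and TRIM22, lie in the lowest part of the signal range, and depth is no measure on arrays. The replicate block changed the call of 6 named genes, all from not called to called.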
